A study of Mus musculus with 7 samples.

Results

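The CXC chemokines and their receptors were examined in myocardial tissue of wild-type male C57BL/6J mice, a common inbred strain, bought at 8 weeks of age and kept for 1 week before surgery. Ligation of the left coronary artery was performed in 3 mice (MI mice), and 4 mice went through the surgery with no ligation (sham-operated mice). Tissue was taken 4 days after the operation and each mouse gave 1 library of total RNA, so the p-values below measure the spread between mice. The study calls the tissue of the MI mice ischemic, and how much muscle outside the infarct it held, or whether the infarct was checked in each mouse, is not given in the sources used here. The 10 genes were Cxcl12, its receptors Cxcr4 and Ackr3, the ligands Cxcl1, Cxcl5, Cxcl9, Cxcl10, Cxcl14 and Cxcl16, and the receptor Cxcr2, selected by name, with low values kept, from the 56980 genes of the deposited table. The values are FPKM, the fragments counted on a gene relative to its length and to the fragments of the library. Of the 10 genes, 6 reached an FPKM of 1 in at least 3 mice and were tested among 11431 genes, and each of these 6 was above 1 in all 7 mice. Cxcl1, Cxcl5, Cxcl10 and Cxcr2 were below that filter and are given by their values and fragments.

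CXC chemokines are small secreted proteins that guide leukocytes and other cells through G protein-coupled receptors. Ligands that signal through Cxcr2, such as Cxcl1 and Cxcl5, attract neutrophils, and Cxcl9 and Cxcl10 are induced by interferons and attract activated T cells and NK cells through Cxcr3. Cxcl12 is made by stromal and endothelial cells of many tissues, including the heart, signals through Cxcr4, and is bound and removed by Ackr3, an atypical receptor that does not couple to G proteins in the usual way.

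The MI mice did not form a uniform group. Of the 11431 genes tested, 88.3% lay outside the range of the sham-operated mice in MI replicate 1, 50.6% in MI replicate 2 and 85.7% in MI replicate 3. Mitochondrially encoded genes held 26.5% to 27.4% of the fragments in the sham-operated mice, 13.6% in MI replicate 1, 28.2% in MI replicate 2 and 14.9% in MI replicate 3. The summed FPKM of 8 cardiomyocyte markers, such as Actc1 and Myh6, was 12500 to 13600 in the sham-operated mice and 8580, 12600 and 9020 in MI replicates 1 to 3, so the tissue carried the markers of heart muscle in every mouse. Depths were between 19977713 and 23610870 fragments. With all 7 mice, limma called 3 of the 11431 genes at an adjusted p under 0.05 (0.0262%), and the log2 fold change of the median gene was 0.21. The results of the 10 genes are therefore given with MI replicate 2 in place and also without it. Replicate 2 was singled out by its expression values, so p-values from fits without it lack their nominal meaning and only describe the remaining mice. In a bulk sample a smaller number of cells of a type and less RNA per cell cannot be told apart.

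In the sham-operated heart Ackr3 and Cxcl12 held the highest levels among the 10 genes. On the FPKM scale Ackr3 stood at 23.9 ± 1.70 (SD, n = 4), followed by Cxcl12 at 13.6 ± 1.83, Cxcl14 at 5.69 ± 0.955 and Cxcr4 at 2.29 ± 0.129. The ranges of these 4 genes did not overlap. Cxcl16 (1.94 ± 0.145) and Cxcl9 (1.88 ± 0.329) came next, and their ranges overlapped. Cxcl1 was at 0.255 ± 0.0348, Cxcl10 at 0.111 ± 0.0336 and Cxcl5 at 0.0544 ± 0.0308, where the ranges of the last 2 overlapped, and Cxcr2 was the lowest at 0.00438 ± 0.00876. In the MI mice every gene overlapped with its neighbour in the order of levels, which ran Ackr3, Cxcl12, Cxcl16, Cxcr4, Cxcl14, Cxcl5, Cxcl9, Cxcl1, Cxcl10 and Cxcr2. The order depends on the gene lengths behind the FPKM values. The length implied for Cxcl12 was 12950 bases against 8176 bases of exons in GENCODE M21, and that for Ackr3 was 3469 against 3348, so a shorter length for Cxcl12 would raise its level relative to Ackr3. Ratios of FPKM between mice do not depend on the length, while differences of log2(FPKM + 1) do to some degree through the added 1.

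**Figure D1:**
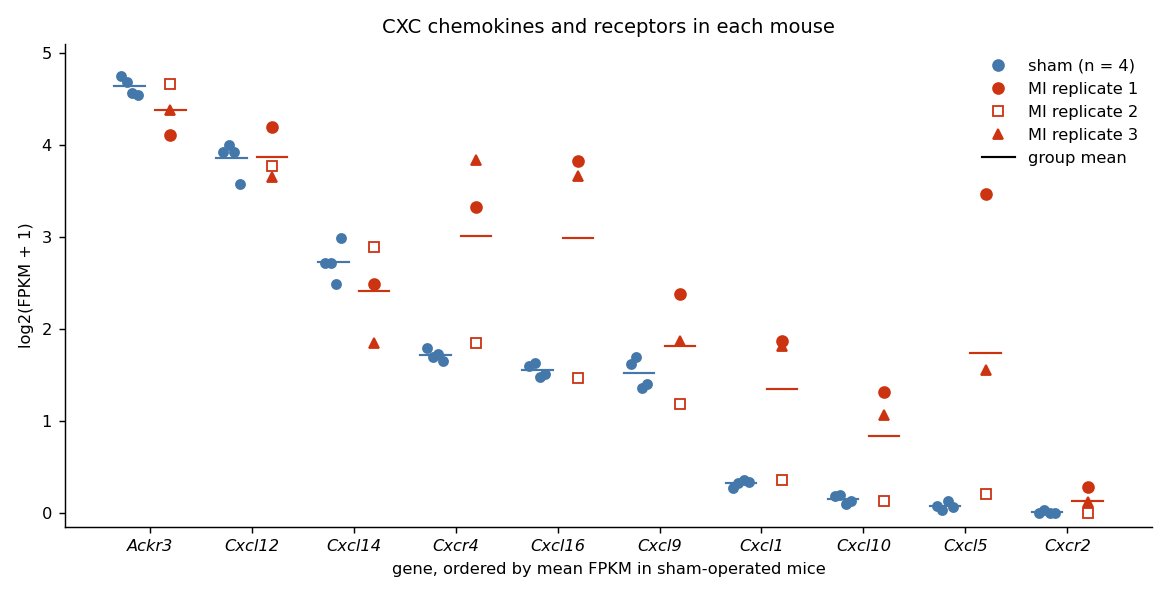
Expression of the 10 CXC genes in each mouse, as log2(FPKM + 1), with genes ordered by their mean FPKM in the sham-operated mice. Blue points are sham-operated mice (n = 4), red symbols are the 3 MI mice (circle, open square and triangle for replicates 1, 2 and 3), and lines are group means; MI replicate 2 lies beside the sham-operated mice for Cxcr4, Cxcl16, Cxcl1, Cxcl10 and Cxcl5, while replicates 1 and 3 lie above them.

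Of the 6 genes tested, 0 were called by limma at an adjusted p under 0.05, and 2 (Cxcr4 and Cxcl16) had an unadjusted p under 0.05. Both were higher in the MI mice by more than 0.5 on the log2 scale, and this pair of limits is called the fold lines below. Of all genes tested 17.8% were past them as higher and 4.8% as lower. None of the 6 was past them as lower. The median of the 6 log2 fold changes was 0.15, against 0.21 over all genes tested. Among the 10 genes, the lowest MI mouse exceeded the highest sham-operated mouse for Cxcr4 and Cxcl5 only, and no gene had every MI mouse below. Over all genes tested the shares were 16.1% above and 9% below, and over the 30504 genes with any fragment 12% were above. MI replicate 2 lay inside the sham range for 6 of the 10 genes, compared with 63.3% of the genes with any fragment, and for 3 of the 6 tested, compared with 49.4% of all genes tested. The exact two-sided permutation test over the 35 splits of the mice, which cannot give a p under 0.0571, gave 0.0571 for Cxcr4 and for Cxcl5 and from 0.114 to 0.971 for the other 8. In the limma fit with no filter the adjusted p of the 4 genes below the filter was between 0.188 and 0.224.

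Without MI replicate 2, limma gave an adjusted p under 0.05 for 5 of the 6 genes, Cxcr4, Cxcl16 and Cxcl9 higher and Ackr3 and Cxcl14 lower, the exception being Cxcl12. The same fit called 71.7% of all genes tested, and the 5 of 6 are to be read against that share. The mouse left out was chosen on the same expression values, so the p-values of this fit do not hold as tests. The groups of 9 of the 10 genes then no longer overlapped, all but Cxcl12, as was the case for 52% of the genes with any fragment and 78.8% of the genes tested.

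**Figure D2:**
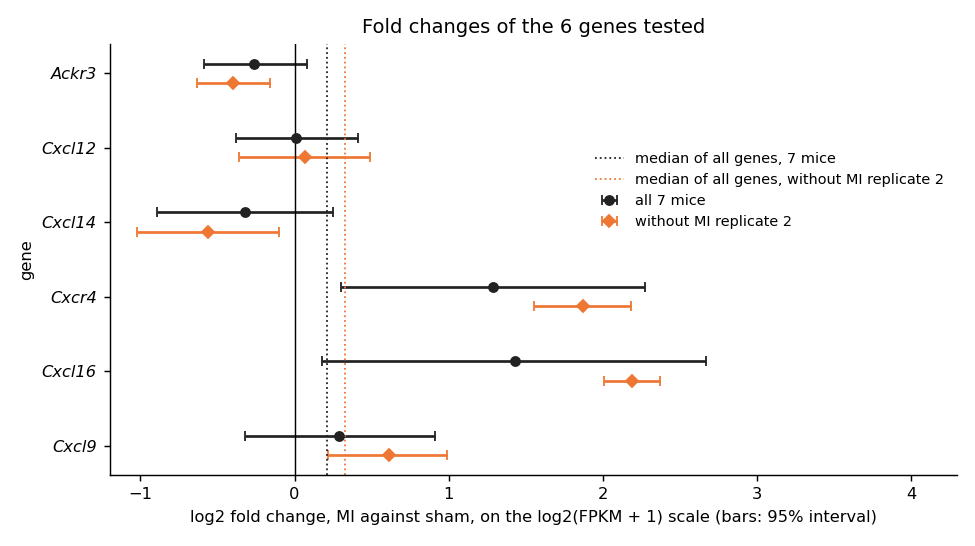
Log2 fold changes of the 6 tested genes in MI against sham-operated mice on the log2(FPKM + 1) scale, with 95% intervals from limma, for all 7 mice (black circles) and without MI replicate 2 (orange diamonds). Dotted lines mark the median of all genes tested (0.21 and 0.33); the intervals of Cxcr4 and Cxcl16 shorten and move up without replicate 2, whereas Cxcl12 stays across 0.

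Cxcl12 (ENSMUSG00000061353), the homeostatic ligand of the axis, spans bases 117168535 to 117181367 of chromosome 6 on its plus strand on GRCm38. Its FPKM was 14.2, 15, 14.3 and 10.9 in sham replicates 1 to 4 and 17.4, 12.6 and 11.5 in MI replicates 1 to 3, from 2828 to 4918 fragments per mouse. MI replicate 1 was above every sham-operated mouse, and the other two MI mice were within the sham range. The log2 fold change was 0.01 (95% interval −0.38 to 0.41, limma adjusted p = 0.952). The interval leaves room for a change in either direction, so equal levels were not shown. Relative to the median gene the value was −0.20. The log2 fold change moved with the scaling in both directions. It was 0.21 after rescaling to TPM, −0.23 with scaling by the median log-ratio and −0.22 with quantile normalization. Without MI replicate 2 the log2 fold change was 0.07 (adjusted p = 0.754).

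Cxcr4 (ENSMUSG00000045382), the signalling receptor for Cxcl12, which is carried by most leukocytes, spans bases 128588199 to 128592293 of chromosome 1 on its minus strand. Its FPKM was 2.45, 2.25, 2.31 and 2.14 in the sham-operated mice and 9.07, 2.59 and 13.3 in MI replicates 1 to 3. MI replicates 1 and 3 were far above the sham-operated mice, and replicate 2 was just above them. The 159 fragments of MI replicate 2 gave an exact Poisson interval of 2.21 to 3.03 FPKM, which covers the 2.45 of the highest sham-operated mouse, so the lack of overlap was not detectable at this depth for that mouse. Such intervals cover counting error only. The mean FPKM in the MI mice was 3.64 times that in the sham-operated mice, and the log2 fold change was 1.29 (95% interval 0.30 to 2.27, limma adjusted p = 0.108) and 1.08 above the median gene. Without MI replicate 2 it was 1.87 (standard error 0.133, adjusted p = 3.27e-05), and 1.54 above the median gene of that fit, while it was 0.87 (adjusted p = 0.33) without MI replicate 3.

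Ackr3 (ENSMUSG00000044337), the scavenging receptor for Cxcl12, once called Cxcr7, spans bases 90203980 to 90216751 of chromosome 1 on its plus strand. Its FPKM was 25.9, 24.8, 22.7 and 22.4 in sham replicates 1 to 4 and 16.2, 24.3 and 19.8 in MI replicates 1 to 3. MI replicates 1 and 3 were below every sham-operated mouse, and MI replicate 2 was inside their range. The log2 fold change was −0.26 (95% interval −0.59 to 0.08, limma adjusted p = 0.198), or −0.47 relative to the median gene. The value moved with the scaling, from −0.07 after rescaling to TPM to −0.50 with quantile normalization, and was negative in all alternatives run. Without MI replicate 2 it was −0.40 (adjusted p = 0.00901), and without MI replicate 1 it was −0.12 (adjusted p = 0.553).

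The balance within the axis was compared within each mouse, where the scaling between mice largely drops out. The ratio of Cxcr4 to Ackr3 in FPKM was 0.0958 ± 0.00468 (SD, n = 4) in the sham-operated mice, with a range of 0.0907 to 0.102. It was 0.559 in MI replicate 1, 0.107 in replicate 2 and 0.673 in replicate 3, so all 3 MI mice were above the sham range, with replicate 2 close to it. As a difference of log2(FPKM + 1), Cxcr4 minus Ackr3 was −2.92 ± 0.0681 in sham-operated mice and −1.38 ± 1.25 in MI mice (n = 3), a gap of 1.54. Cxcr4 minus Cxcl12 was −2.14 ± 0.161 and −0.87 ± 1.06, a gap of 1.28, where MI replicate 2 and sham replicate 4 both stood at −1.92. The exact two-sided permutation p was 0.0571 for both gaps, the lowest value the design can give, and 0.0857 when adjusted by the Benjamini-Hochberg method over the 3 differences computed. Ackr3 minus Cxcl12 was 0.78 ± 0.151 and 0.51 ± 0.531, and the exact permutation p of its gap of −0.27 was 0.571. MI replicate 1 was the one mouse in which Cxcl12 exceeded Ackr3 on this scale, at −0.10. Leaving out MI replicate 2 raised the gap of Cxcr4 minus Ackr3 to 2.26 and that of Cxcr4 minus Cxcl12 to 1.8, and leaving out MI replicate 3 lowered them to 1.12 and 0.75.

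**Figure D3:**
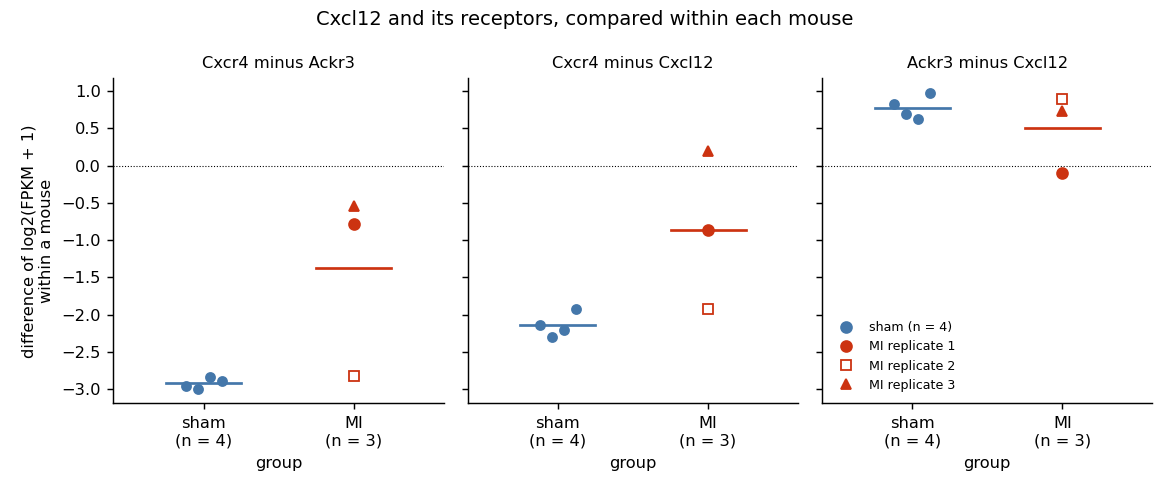
Differences of log2(FPKM + 1) between Cxcr4, Ackr3 and Cxcl12 within each mouse, for sham-operated mice (blue, n = 4) and MI mice (red, n = 3; circle, open square and triangle for replicates 1, 2 and 3), with lines at the group means. For Cxcr4 minus Ackr3 the sham-operated mice sit between −2.99 and −2.84 and the MI mice at −0.78, −2.82 and −0.54.

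The genes whose profile over the 7 mice was closest to each axis gene were taken by the root-mean-square distance between log2(FPKM + 1) profiles centred on their means. For Cxcr4 these were Cebpa (distance 0.086), a myeloid and adipocyte transcription factor, Prss23 (0.093) and Scd1 (0.099), a fatty acid desaturase. For Ackr3 they were Ndufa13 (0.046), a subunit of respiratory complex I, Ddo (0.048) and Cmtm8 (0.050), and for Cxcl12 they were Naa40 (0.074), Gm25135 (0.080) and Zfp867 (0.080). These distances describe 7 points each.

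The 250 bases before the RefSeq start of the gene were at hand for 8 of the 10 genes on GRCm38.p6 (not for Cxcl5 and Cxcl16) and were searched on both strands for 5 sets of letters. These were the NF-kappaB motif (GGGANTTCC, or the same with 1 more T before the final CC), the interferon-stimulated response element (GAAA, any 2 bases, GAAA), the interferon gamma-activated sequence (TTCNNNGAA), the GC box (GGGCGG) and TATAAA. In these genes no match of one motif overlapped a match of another. Over 32851 mouse promoter windows of the same length these were found in 1.78%, 2.98%, 7.02%, 32.7% and 12.4%. The windows of Cxcl12 (chr6:117168285-117168534, plus strand) and Cxcr4 (chr1:128592300-128592549, minus strand) are shown as those of the ligand and the receptor that the comparisons within the axis turn on, and the capitals mark every match:
Cxcl12: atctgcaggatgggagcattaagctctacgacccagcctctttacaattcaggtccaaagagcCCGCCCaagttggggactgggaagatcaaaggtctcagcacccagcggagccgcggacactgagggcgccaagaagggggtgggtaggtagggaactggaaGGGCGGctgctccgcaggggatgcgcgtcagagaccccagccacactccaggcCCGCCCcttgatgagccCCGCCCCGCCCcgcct
Cxcr4: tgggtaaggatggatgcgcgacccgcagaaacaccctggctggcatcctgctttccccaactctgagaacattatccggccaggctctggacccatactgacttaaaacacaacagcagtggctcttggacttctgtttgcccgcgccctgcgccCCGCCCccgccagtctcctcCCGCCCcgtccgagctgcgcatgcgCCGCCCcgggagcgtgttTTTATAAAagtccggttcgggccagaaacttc
The Cxcl12 window was 64.4% G and C, against a median of 52.4% over all windows, and held 5 GC boxes, of which a pair shared 1 base, and no TATAAA. The Cxcr4 window was 61.2% G and C and held 3 GC boxes and a TATAAA from −30 to −25 relative to the start, overlapped by the same letters on the other strand. The Ackr3 window held 1 GC box and 1 TATAAA. None of the 3 held the NF-kappaB or interferon motifs. A match is a description of the letters in this window.

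Cxcl1 and Cxcl5, both ligands of Cxcr2, were near 0 in the sham-operated heart. Cxcl1 (ENSMUSG00000029380; plus strand of chromosome 5, 90891241 to 90893115) stood at 0.205, 0.261, 0.287 and 0.266 FPKM in the sham-operated mice, from 13 to 19 fragments each, and at 2.65, 0.282 and 2.53 in MI replicates 1 to 3. MI replicates 1 and 3 were above all sham-operated mice and replicate 2 was inside their range. The mean in the MI mice was 7.15 times that in the sham-operated mice, with an exact permutation p of 0.114, and 10.2 times without MI replicate 2. Cxcl5 (ENSMUSG00000029371; plus strand of chromosome 5, 90759360 to 90761624) rested on 3, 1, 5 and 2 fragments in the sham-operated mice and on 499, 8 and 103 in MI replicates 1 to 3. Its FPKM was 0.0203 to 0.0940 in the sham-operated mice and 10.1, 0.156 and 1.93 in the MI mice, and the ratio of the means was 74.7, or 111 without MI replicate 2. Per fragment sequenced the ratio was 71.4, with an exact 95% interval of 39.6 to 144 for counting error only, and it rested mainly on MI replicate 1: the log2 difference of means was 1.67, 0.80 without MI replicate 1 and 2.44 without MI replicate 2. All MI mice were above all sham-operated mice (exact permutation p = 0.0571), but the interval of 0.0673 to 0.307 FPKM from the 8 fragments of MI replicate 2 covers the highest sham value. Cxcl5 in MI replicate 1 was also more than 5 times its level in MI replicate 3, whereas Cxcl1 was alike in these mice.

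Cxcr2 (ENSMUSG00000026180; plus strand of chromosome 1, 74153989 to 74161246), the receptor of these ligands on neutrophils, had 0, 2, 0 and 0 fragments in the sham-operated mice and 25, 0 and 11 in MI replicates 1 to 3. Fragments were thus found in MI replicates 1 and 3 and in 1 sham-operated mouse. A count of 0 allows up to 3 fragments as a one-sided 95% limit, which is lower than the upper end of the two-sided intervals given for other genes, or 0.0243 to 0.0286 FPKM in the sham-operated mice with none and 0.0252 in MI replicate 2. Over the groups, 36 against 2 fragments gave a ratio of 23.2 per fragment sequenced, with an exact 95% interval of 5.97 to 199 for counting error only. The summed FPKM of 8 neutrophil markers, none of which passed the filter, was 0.355 to 1.31 in the sham-operated mice and 15.8, 0.519 and 7.64 in MI replicates 1 to 3, with S100a9 at 7.69 and Csf3r at 2.84 in MI replicate 1, and for 2 of the 8, against 12% of all genes with any fragment, the MI mice were all above the sham range; these were S100a8 and Ltf, on 4 and 2 fragments in MI replicate 2. Ly6g, a defining marker of mouse neutrophils, was at 0 in all mice, and Retnlg and Camp were at 0 in all sham-operated mice. The part of the neutrophil markers in the values of Cxcl1, Cxcl5 and Cxcr2 was not tested. The window before Cxcl1 (chr5:90890995-90891244, plus strand) is shown for its NF-kappaB motif, in capitals:
Cxcl1: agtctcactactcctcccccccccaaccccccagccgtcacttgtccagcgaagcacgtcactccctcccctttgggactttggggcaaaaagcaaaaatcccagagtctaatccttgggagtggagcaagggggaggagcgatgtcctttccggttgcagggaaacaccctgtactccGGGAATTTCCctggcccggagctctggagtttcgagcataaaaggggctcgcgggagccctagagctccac
The match ran from −71 to −62 relative to the start. The window before Cxcr2 held none of the 5 motifs.

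Of the interferon-induced ligands, Cxcl9 (ENSMUSG00000029417; minus strand of chromosome 5, 92321347 to 92328079) was at 2.07, 2.25, 1.57 and 1.64 FPKM in the sham-operated mice and at 4.21, 1.27 and 2.65 in MI replicates 1 to 3. MI replicates 1 and 3 were above the sham-operated mice and replicate 2 was below them, on 94 fragments. The log2 fold change was 0.29 (95% interval −0.32 to 0.91, limma adjusted p = 0.397), and 0.61 (adjusted p = 0.0127) without MI replicate 2, of which 0.28 lay above the median gene. It was 0.01 (adjusted p = 0.985) without MI replicate 1. Cxcl10 (ENSMUSG00000034855; minus strand of chromosome 5, 92346638 to 92348889) was at 0.131, 0.145, 0.0715 and 0.0946 FPKM in the sham-operated mice, on 8 to 15 fragments, and at 1.49, 0.0927 and 1.10 in MI replicates 1 to 3. Replicate 2 lay inside the sham range and the other two above it, and the mean was 8.11 times that of the sham-operated mice (exact permutation p = 0.229) and 11.7 times without MI replicate 2. Cxcl10 shares 133 exon bases with Art3 on the opposite strand, and whether the counting used the strand is not given in the sources used here.

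The windows before Cxcl9 (chr5:92328080-92328329, minus strand) and Cxcl10 (chr5:92348890-92349139, minus strand) are shown because both hold an NF-kappaB motif, and motifs are in capitals:
Cxcl9: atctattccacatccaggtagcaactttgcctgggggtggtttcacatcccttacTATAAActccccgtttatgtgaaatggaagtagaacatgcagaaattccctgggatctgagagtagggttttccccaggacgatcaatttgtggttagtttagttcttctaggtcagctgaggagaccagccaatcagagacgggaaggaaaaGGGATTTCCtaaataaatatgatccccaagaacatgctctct
Cxcl10: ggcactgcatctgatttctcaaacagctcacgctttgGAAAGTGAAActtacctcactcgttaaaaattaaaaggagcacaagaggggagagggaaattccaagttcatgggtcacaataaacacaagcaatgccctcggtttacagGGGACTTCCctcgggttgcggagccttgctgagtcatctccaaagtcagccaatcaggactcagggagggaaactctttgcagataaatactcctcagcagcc
In Cxcl9 the NF-kappaB match ran from −42 to −34, with a TATAAA from −195 to −190. In Cxcl10 it ran from −103 to −95, and an interferon-stimulated response element from −213 to −204 stood further upstream. Of the 8 windows, that of Cxcl14 was the other one to hold the response element, from −172 to −163, and the one to hold an interferon gamma-activated sequence, from −191 to −183.

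Of 9 genes of the interferon gamma pathway, 6 were tested and 0 were called by limma at an adjusted p under 0.05. The fold lines were passed by 2 as higher and by none as lower, against 17.8% and 4.8% of all genes tested, and the median of the 6 was 0.49 against 0.21. In the fit without MI replicate 2, 5 of the 6 were called as higher and 1 as lower, against 6512 and 1683 of the 11431 genes tested. Ifngr2, the signal-carrying receptor chain, was at 33.5 ± 0.922 FPKM in the sham-operated mice and 24.9, 27.9 and 27.6 in MI replicates 1 to 3 (log2 fold change −0.31, adjusted p = 0.108), with every MI mouse below the sham range. Ifngr1 had a log2 fold change of 0.74 (adjusted p = 0.11), Jak2 of 0.56 (adjusted p = 0.108), with every MI mouse above the sham range, and Jak1 of 0.16 (adjusted p = 0.205). Ifng itself was at 0 in all mice except MI replicate 1, where it was at 0.0289 FPKM. The 8 T and NK cell markers summed to 0.498 to 0.619 FPKM in the sham-operated mice and to 6.19, 1.09 and 3.95 in MI replicates 1 to 3, and 4 of them had every MI mouse above every sham-operated mouse, against 12% of all genes with any fragment. Cd4, the highest by its mean over the 7 mice, reached 1.10 in MI replicate 1, and none of the 8 passed the filter. Their part in the values of Cxcl9 and Cxcl10 was not tested.

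Cxcl16 (ENSMUSG00000018920; minus strand of chromosome 11, 70453983 to 70459984), a chemokine made as a membrane protein that binds Cxcr6 and oxidised lipoprotein, was at 2.03, 2.10, 1.79 and 1.85 FPKM in the sham-operated mice and at 13.2, 1.76 and 11.6 in MI replicates 1 to 3. MI replicate 2 was beside the sham-operated mice, and the exact Poisson interval of its 183 fragments, 1.52 to 2.04 FPKM, covers the lowest of them, at 1.79. The log2 fold change was 1.43 (95% interval 0.18 to 2.67, limma adjusted p = 0.112), the largest of the 6 tested genes and rank 288 by size among 11431. Without MI replicate 2 it was 2.19 (standard error 0.0766, adjusted p = 2.43e-06), and without MI replicate 1 it was 1.01 (adjusted p = 0.341). Cxcl16 shares 552 exon bases with Zmynd15 on the opposite strand, so if the counting did not use the strand, fragments on these of its 3021 exon bases could come from either gene.

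Cxcl14 (ENSMUSG00000021508; minus strand of chromosome 13, 56288643 to 56296551), a chemokine made by epithelia and stromal cells, was at 5.58, 5.58, 4.63 and 6.95 FPKM in the sham-operated mice and at 4.61, 6.42 and 2.62 in MI replicates 1 to 3. MI replicate 1 was just under the lowest sham-operated mouse, replicate 3 well under it and replicate 2 inside the range. The log2 fold change was −0.32 (95% interval −0.89 to 0.25, limma adjusted p = 0.319), −0.56 (adjusted p = 0.0357) without MI replicate 2, and −0.04 (adjusted p = 0.886) without MI replicate 3. The 203 fragments of MI replicate 1 gave an interval of 4 to 5.29 FPKM, which covers the lowest sham value, so for Cxcl14 a lower level in that mouse was not detectable at this depth.

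The macrophage, fibroblast and endothelial markers were read beside Cxcr4, Cxcl16, Cxcl12, Cxcl14 and Ackr3. The 10 macrophage markers summed to 201 to 255 FPKM in the sham-operated mice and 1340, 243 and 1150 in MI replicates 1 to 3. Of the 9 tested, Fcgr1 passed the filter through the MI mice alone and is left out of the counts here. The other 8 were past the fold lines as higher, against 17.8% of all genes tested, with a median log2 fold change of 1.55 against 0.21, led in level by Lyz2 (1.75, limma adjusted p = 0.108) and C1qb (1.63, adjusted p = 0.108). The 8 fibroblast markers, all past the fold lines as higher with a median of 1.90, summed to 147 to 174 in the sham-operated mice and 2370, 262 and 1870 in the MI mice, with Col3a1 at 3.37 and Col1a1 at 3.69 (adjusted p = 0.108 for both). The 8 endothelial markers summed to 139 to 155 and to 167, 132 and 182, with a median of 0.18 and 1 past the fold lines as higher, and Cdh5, the most abundant, at 0.06 (adjusted p = 0.753). Of the 8 cardiomyocyte markers 4 were past the fold lines as lower, against 4.8% of all genes tested, and the median was −0.52, with Myh6 at −0.63 (adjusted p = 0.129). None of these markers was called at an adjusted p under 0.05 with all mice. In the fit that left out MI replicate 2, 8 macrophage, 8 fibroblast and 5 endothelial markers were called as higher. The 8 cardiomyocyte markers were called as lower. Of the 11431 genes tested, the same fit called 6512 as higher and 1683 as lower. Cxcr4 and Cxcl16 were thus high in MI replicates 1 and 3, where the macrophage, fibroblast and endothelial sums were above the sham range. The neutrophil and the T and NK cell sums were above it there too. In MI replicate 2 the fibroblast sum was also above the sham range, while Cxcl16, at 1.76 FPKM, was just under it. Cxcr4 was higher in MI replicate 3 than in replicate 1, unlike the macrophage and fibroblast sums. The part of the markers in the values of Cxcr4 and Cxcl16 was not tested.

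Of 15 genes that act on or with the axis, 13 were tested, 0 were called by limma at an adjusted p under 0.05, and 7 were past the fold lines as higher and 0 as lower, against 17.8% and 4.8% of all genes tested. Their median log2 fold change was 0.64, against 0.21 over all genes tested. Cd74, which binds the cytokine Mif and pairs with Cxcr4, was at 30.5 ± 1.44 FPKM in the sham-operated mice with a log2 fold change of 1.46 (adjusted p = 0.108), and Mif, an alternative ligand of Cxcr4, was at 38.3 ± 2.35 with 0.64 (adjusted p = 0.11). Mmp2, a protease that cuts Cxcl12, had 2.09 (adjusted p = 0.108) and Gnai2, a G protein subunit, 0.59 (adjusted p = 0.117). The summed FPKM of the 15 was 154 to 163 in the sham-operated mice and 541, 164 and 448 in MI replicates 1 to 3. With MI replicate 2 left out, 9 of the 13 were called as higher and 0 as lower. Of the 11431 genes tested, that fit called 6512 as higher and 1683 as lower.

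The share of Cxcl12 among CXC ligand transcripts was lower in MI replicates 1 and 3. Over 15 ligand genes (the 7 ligands above with Pf4, Ppbp, Cxcl2, Cxcl3, Cxcl11, Cxcl13, Cxcl15 and Cxcl17), the summed FPKM was 30.7 to 35 in the sham-operated mice, and 127, 32.2 and 58.9 in MI replicates 1 to 3. Cxcl12 made up 35.6% to 43.6% of it in the sham-operated mice (mean 41.0% ± 3.67, n = 4), and 13.7%, 39.2% and 19.6% in the MI mice, while its own FPKM stayed between 10.9 and 17.4. Cxcl12 held the largest share in all 4 sham-operated mice and in MI replicate 2, and Cxcl13 did in MI replicates 1 (39.5%) and 3 (22.6%). The shares depend on the gene lengths: with GENCODE M21 exon lengths, an alternative chosen after seeing the data, Cxcl12 made up 37.8% to 45.2% in the sham-operated mice and 16.5%, 41.2% and 21.5% in the MI mice, and in MI replicate 3 the largest share was that of Pf4, with Cxcl13 at 15.7%. Cxcl16 made up 5.47% to 6.04% in the sham-operated mice and 10.4%, 5.46% and 19.7% in MI replicates 1 to 3, and Cxcl5 reached 7.97% in MI replicate 1.

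**Figure D4:**
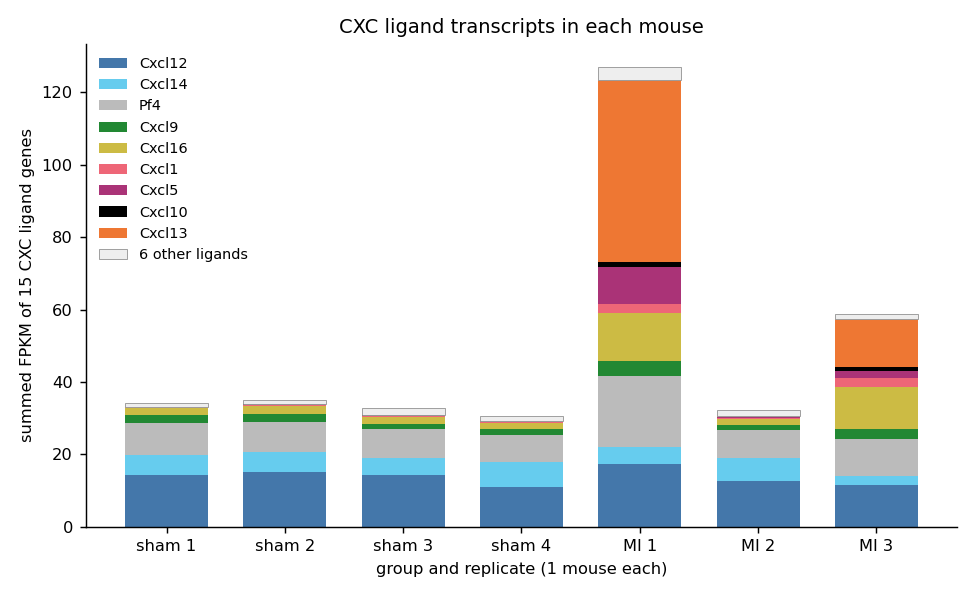
Summed FPKM of 15 CXC ligand genes in each mouse, with each of 9 ligands as a coloured segment and the other ligands in pale grey. The blue Cxcl12 segment runs from 10.9 to 17.4 FPKM, and the added height in MI 1 (127) and MI 3 (58.9) comes mostly from Cxcl13 (orange), Cxcl16 (yellow), Pf4 (grey) and Cxcl5 (purple).

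Of the 8 other ligands only Pf4 and Ppbp, both platelet chemokines, were tested, with log2 fold changes of 0.46 (limma adjusted p = 0.212) and 0.25 (adjusted p = 0.474), and without MI replicate 2 adjusted p-values of 0.022 and 0.452. Cxcl13, a chemokine that draws B cells through Cxcr5, had 0, 2, 0 and 2 fragments in the sham-operated mice and 1254, 3 and 362 in MI replicates 1 to 3, or 50.1, 0.115 and 13.3 FPKM. As for Cxcl2, all 3 MI mice were above the sham-operated mice, but replicate 2 by a single fragment, and since fewer than 3 mice reached an FPKM of 1 it was not tested. Cxcl2, Cxcl3 and Cxcl17 stayed under 0.4 FPKM in every mouse, and Cxcl11 and Cxcl15 were at 0 in all 7. Of the 5 other receptors 0 passed the filter. Cxcr3, the receptor of Cxcl9 and Cxcl10, had 0 or 1 fragments in the sham-operated mice and 46, 2 and 38 in MI replicates 1 to 3. Cxcr6, the receptor of Cxcl16, had 0 to 5 and then 114, 0 and 60, and Cxcr5 had 3 to 5 and then 118, 1 and 31. Cxcr1 had 0 to 3 fragments in every mouse, and Ackr1, a chemokine-binding protein of red cells and venules, had 0 to 9 in the sham-operated and 8 to 16 in the MI mice. For Cxcr3, Cxcr5 and Cxcr6 MI replicates 1 and 3 were above all sham-operated mice and replicate 2 was with them or just outside.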

How the data were processed

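Myocardial RNA of 7 mice was sequenced, 1 library each, and grouped by the treatment given in the sample labels. The authors deposited FPKM for 56980 Ensembl genes. The submitters' processing notes name CASAVA 1.8, HISAT2, SAMtools 1.3.1, edgeR and the build mm10; the annotation, the counting program and the use of strand are not given in the sources used here. No column of values was left unused. Symbols and positions came from GENCODE M21 for 52073 identifiers (91.4%). FPKM values were whole multiples of a step of 1 fragment, and lengths from 20 to 120000 bases were searched for a length that left each mouse at most 0.05 from a whole number, which gave fragments for 30503 of 30504 genes above 0 and the depths; this was tested on simulated data, as was the fit.

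Values were analysed as log2(FPKM + 1), so changes of low genes are understated. The test was limma 3.58.1 (lmFit, eBayes with trend; R 4.3.3) with group as the one term, on the 11431 genes that reached an FPKM of 1 in 3 or more mice, with the Benjamini-Hochberg adjustment at 0.05. Single values were tested by exact permutation of the mice. Promoter sequences were those of RefSeq. The fold lines were an unadjusted p under 0.05 with an absolute log2 fold change over 0.5. The alternatives changed the pseudocount (0.1), the filter (none, or on the mean) and the scale (TPM, median log-ratio scaling, quantile normalization), or used no trend, sample weights, a replicate block or voom on the fragments, or left out each mouse. Other steps ran in Python 3.11.15 with SciPy 1.17.1, NumPy 2.4.6 and pandas 2.3.3. All 10 genes are named, with every other CXC gene and up to 4 genes of each other list, those with the highest mean FPKM (markers of neutrophils, macrophages, T and NK cells, fibroblasts, endothelium and cardiomyocytes, axis partners, interferon gamma pathway), and the 3 nearest profiles of each axis gene. Genes named at 0 in a group, or to account for a count, were chosen after their values were seen. The members, lists and tests were chosen with earlier results of these data known.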

Additional observations from a re-analysis of the deposited data

Results flagged for a closer look

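Dixon's test at the 95% level was applied to 23 sets of 4 sham-operated mice (the 10 genes, the 3 within-mouse differences and the summed levels of 10 lists), and 2 had a mouse apart from the others, where chance gives about 1 in 20. For Cxcr2 the gap filled the whole range (ratio 1), since sham replicate 2 had 2 fragments and the other sham-operated mice 0. For the summed neutrophil markers the ratio was 0.868, with a range of 0.355 to 1.31 FPKM.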

How the results depend on the processing

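With each mouse left out in turn, log2 fold changes ran from −0.15 to 0.13 for Cxcl12 (below 0 without sham replicate 4 or MI replicate 1), 0.87 to 1.87 for Cxcr4, −0.40 to −0.12 for Ackr3, 0.01 to 0.61 for Cxcl9, −0.56 to −0.04 for Cxcl14 and 1.01 to 2.19 for Cxcl16. From 0 to 5 of the genes had an adjusted p under 0.05 in limma (5 without MI replicate 2 and 0 in every other case), 0 to 4 passed the fold lines, and 2 to 9 had groups that did not overlap or the smallest exact p (9 without MI replicate 2, where 52% of the genes with any fragment did not overlap). Over all genes, 0 to 6512 were called as higher and 0 to 1683 as lower, the upper values again without MI replicate 2. Leaving out MI replicate 1 gave 0 genes past the fold lines, and so did leaving out MI replicate 3; leaving out any of the sham-operated mice gave 1. Cxcr4 minus Ackr3 ran from 1.12 to 2.26, Cxcr4 minus Cxcl12 from 0.75 to 1.8 and Ackr3 minus Cxcl12 from −0.46 to 0.03. Cxcl12 rose to 0.21 with TPM. It turned to −0.23 with median log-ratio scaling, −0.22 with quantile normalization, −0.24 with sample weights and −0.08 with the replicate block. Sample weights, which did not converge fully and gave MI replicate 3 nearly all the weight among the MI mice, brought all 6 genes to an adjusted p under 0.05, Cxcl12 as lower, with 2.12 for Cxcr4, −0.26 for Ackr3, 0.34 for Cxcl9, −0.86 for Cxcl14 and 2.10 for Cxcl16; the same fit called 7636 genes as higher and 2316 as lower. Against 2 higher and 1 lower with all mice (4496 at an unadjusted p under 0.05), the higher calls were 5 with a pseudocount of 0.1, 20 with no filter, 0 with a filter on the mean, 1 with voom, and 10 with either rescaling by the median log-ratio or quantiles; the lower calls were 0 with a filter on the mean, 0 with TPM, and 5 with either of those rescalings. With no filter 5 of the 10 genes passed the fold lines, because 4 more were in the fit. Deviations of same-numbered mice from their group means correlated at r = 0.074, −0.016 and −0.080. With 3 MI mice, of which replicate 2 stood apart, these values cannot show whether the numbers pair the mice. With the replicate block 0 genes were called in either direction. The exact permutation p of Cxcr4 minus Cxcl12 was 0.114 with quantile normalization. Quantile normalization was not run on the count of groups without overlap, since 4 of the genes were not in it. The cause of these differences was not tested. With 3 MI mice of which 1 lay near the sham-operated mice, and with 0 to 19 fragments per sham-operated mouse for Cxcl1, Cxcl5, Cxcl10 and Cxcr2, sizes of change of these 4 genes depend strongly on the added constant: the log2 difference of Cxcl5 was 1.67 with 1 added and 3.52 with 0.1. With each mouse left out it ran from 0.80 to 2.44 for Cxcl5, 0.76 to 1.52 for Cxcl1, 0.45 to 1.04 for Cxcl10 and 0.05 to 0.20 for Cxcr2.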
